A study of Mus musculus with 14 samples.

Results

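The miRNAs described here come from a pair of genes, Mir205 and Mir203, and were measured by quantitative PCR in mouse plasma. All wells of the deposited Cq table whose miRNA name was miR-205 or miR-203 were taken, whatever the arm, which gave 3 assays (mmu-miR-205, mmu-miR-203 and mmu-miR-203*) of the 389 named miRNAs. One plasma sample was analysed from each of 6 control mice and 8 mice with osteosarcoma (OS). The methods name a larger set of OS mice for these panels, and the others were not analysed here, so the OS ranges and SDs below stand for these 8 only. The mice with OS are a genetically engineered model (GEMM) that carries Cre under a collagen type I promoter fragment active in osteoblasts and Trp53 with LoxP sites on 1 or both alleles. The labels give neither the number of floxed alleles nor the presence of metastases nor the age of a single mouse. Controls were wild-type littermates, matched for age by the study. Their genotype is written in the methods as p53+/+;Cre+/−, so the sources used here do not settle whether a given control carried Cre. Tumors were identified by histology, and plasma was spun from blood of a cardiac puncture. Nothing in the labels ties mice to litters or cages. Tests therefore took each mouse as a separate unit, and a shared litter or cage could not be taken into account.

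Both genes are known for stratified epithelium. miR-205 marks the basal layer of skin and other lining tissues, and together with the miR-200 family it holds down the ZEB repressors of epithelial genes. miR-203 appears as keratinocytes leave the basal layer, where it limits the p63 factor of proliferating cells. From each miRNA precursor hairpin, the arm that is loaded into the silencing complex more often is called the guide and the other arm the passenger, which older names mark with a star.

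The sequences are shown because the assays differ only in the arm and the gene they read. They were taken from RefSeq on GRCm38.p6, where all 3 assays matched an entry by name, mmu-miR-205 as miR-205-5p, mmu-miR-203 as miR-203-3p and mmu-miR-203* as miR-203-5p. Capitals mark the seed, bases 2 to 8, by which a miRNA recognises its targets.
mmu-miR-205: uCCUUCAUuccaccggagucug
mmu-miR-203: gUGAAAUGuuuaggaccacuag
mmu-miR-203*: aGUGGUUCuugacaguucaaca
All 3 mature RNAs have 22 bases and their seeds differ. Among the mature mouse entries of that table, 0 others share any of the 3 seeds.

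The hairpins show where the arms lie, with both arms in capitals. Mir205 is at chr1:193507463-193507530 on the minus strand, within the span of the long noncoding RNA gene Mir205hg. Mir203 is at chr12:112130880-112130955 on the plus strand, between the genes Aspg and Kif26a.
Mir205: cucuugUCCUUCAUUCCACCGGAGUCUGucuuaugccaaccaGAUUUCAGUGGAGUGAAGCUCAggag
Mir203: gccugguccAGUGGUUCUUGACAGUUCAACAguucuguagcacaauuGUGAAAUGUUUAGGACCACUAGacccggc
In Mir205 the measured arm lies first in the hairpin. In Mir203 the guide is the later arm and the passenger the earlier one, so mmu-miR-203* and mmu-miR-203 are cut from 1 hairpin, 16 bases apart. The opposite strand of Mir203 carries another annotated miRNA gene, Mir203b (Gm51289). None of the named wells measured a miR-203b arm or the passenger arm of miR-205, which were not analysed here.

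A quantification cycle (Cq) is the PCR cycle at which a well passes a set signal, so a lower Cq stands for more RNA and 1 cycle for about a factor of 2. Wells with a Cq above 37 counted as not detected. The normalized level is the mean Cq of the 388 retained miRNAs in a mouse minus the Cq of the assay, on a log2 scale, and a higher value stands for more RNA. The mean Cq differed between the groups by 0.435 cycles, more in OS, a difference that did not pass (two-sided exact permutation test over mice, p = 0.206). Wells for each of the 3 reference miRNAs (miR-191, miR-103, miR-423-3p) were present on both panels and differed by a mean of -0.554 to -0.109 cycles with an SD of 0.126 to 0.217 cycles (n = 14 mice), which gives the repeat error at their levels.

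miR-205 was abundant in control plasma and lower in every mouse with OS. In controls its Cq was 24.97 at the lowest, 25.94 at the median and 26.47 at the highest. In OS the same values were 29.94, 30.20 and 30.94. Thus no value was shared between the groups, and 3.47 cycles lay between the highest control Cq and the lowest OS Cq. The normalized level ran from 5.00 to 6.54 in controls (median 5.74) and from 1.27 to 2.36 in OS (median 1.77). miR-205 was decreased 15.7-fold in OS (95% CI 9.84 to 25.2, limma adjusted p = 1.20e-07 over 388 miRNAs). Of the 3 assays 2, miR-205 and miR-203, were called lower, as were 25 of all 388, or 6.44%. The call held under each of 14 other settings of scaling, Cq limit, missing values, filter, test and mice, with log2 differences from -4.41 to -3.73, and without any 1 of the 14 mice, from -4.15 to -3.83. Plasma holds RNA shed by many tissues, and fewer cells of a type and less RNA per cell cannot be told apart.

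**Figure D1:**
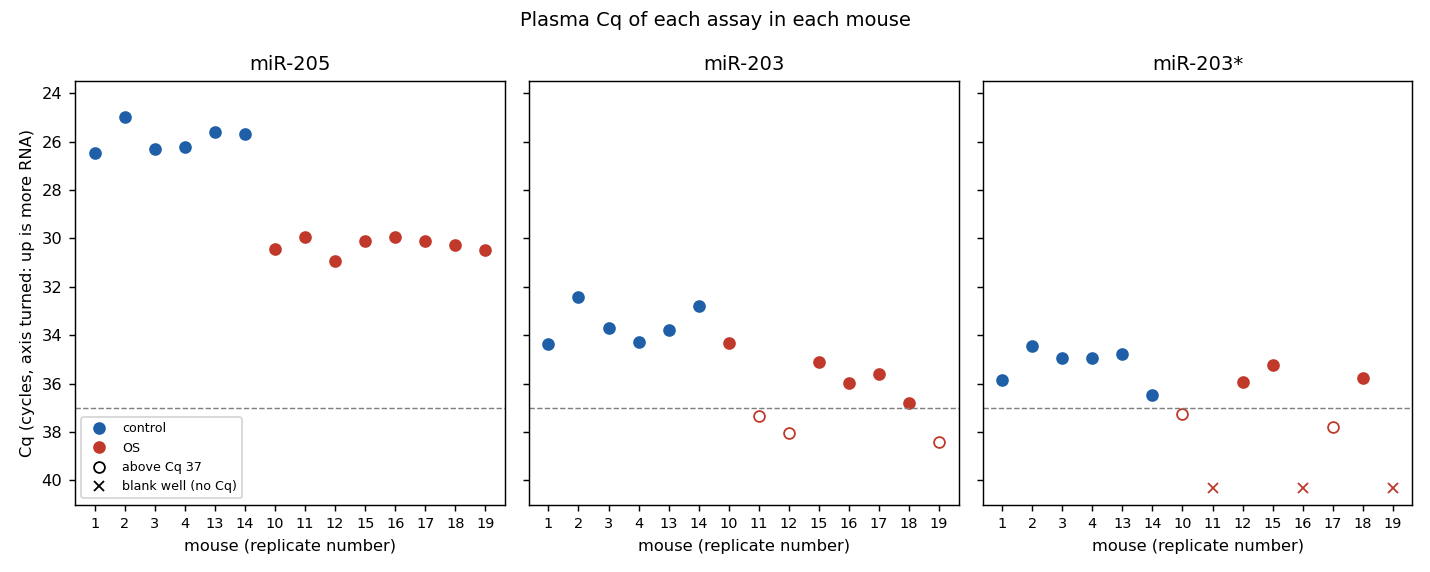
Cq of mmu-miR-205, mmu-miR-203 and mmu-miR-203* in each mouse. The vertical axis is the Cq in cycles, turned so that more RNA is higher, the horizontal axis gives the replicate number, blue points are the 6 controls and red points the 8 mice with OS, open points lie above the limit of Cq 37 (dashed), and crosses mark blank wells. miR-205 forms a pair of separate bands at 24.97 to 26.47 and 29.94 to 30.94, while miR-203 and miR-203* reach the limit only in mice with OS.

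The separation of miR-205 was measured against the 276 miRNAs with a value in every mouse. In 3 of them, or 1.09%, every mouse with OS lay below every control on the normalized scale. The gap between the groups was 2.63 log2 units for miR-205 and 0.0946 for the next miRNA. miR-205 also varied little among the mice with OS. Its Cq had an SD of 0.339 cycles (n = 8), the lowest of the 276, against a median SD of 0.971. After normalization its SD in OS was 0.369 and ranked 17 of 276, against a median of 0.840. In controls the SD of its Cq was 0.565 cycles (n = 6) and ranked 25. Both ranks by Cq describe a miRNA that was chosen with its values known, and they carry no test.

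**Figure D2:**
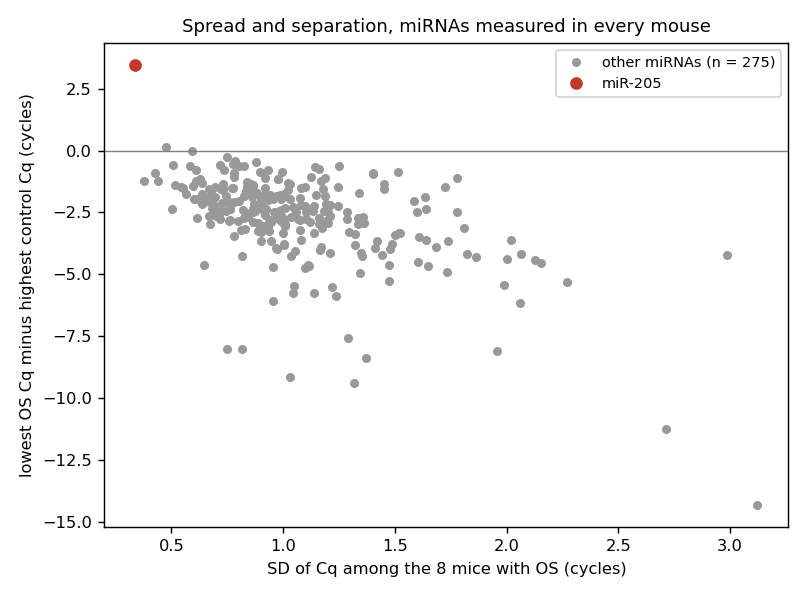
Spread and separation of 276 miRNAs with no missing mouse. Across is the SD of the Cq among the 8 mice with OS and upwards the lowest OS Cq minus the highest control Cq, both in cycles, so that points above the line at 0 are miRNAs with more RNA in every control than in any mouse with OS. miR-205 (red) lies alone at an SD of 0.339 and a gap of 3.47, and the next gap is that of miR-434-5p at 0.14.

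The place of miR-205 in the order of all measured miRNAs, which any scaling by 1 factor for each mouse leaves as it is, moved in the same way. Counted from the lowest Cq, it was between the 14th and the 46th miRNA in controls (median 33.5) and between the 83rd and the 122nd in OS (median 110), of 333 to 387 miRNAs measured in a mouse. As a share of the list its mean place was 8.30% ± 2.78 (SD) over 6 controls and 29.5% ± 3.28 (SD) over 8 mice with OS (two-sided exact permutation test, adjusted p = 0.000999 over the 3 assays). With the panels centred separately the difference was 23.2 percentage points, against 21.2 (same adjusted p). Primers differ in efficiency between wells, so such a place is no measure of molecules. The highest place in controls was that of replicate 1 and the lowest that of replicate 13. All mice with OS were placed behind all controls.

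miR-203, the guide of its hairpin, was much scarcer and also lower in OS. Its Cq was 32.44 at the lowest, 33.74 at the median and 34.35 at the highest in controls. In OS it was 34.31, 36.39 and 38.41, with all 8 wells giving a value. OS replicate 10, at 34.31, thus lay within the control range, and the other 7 mice with OS lay above it. OS replicates 11, 12 and 19, at 37.34, 38.05 and 38.41, passed the limit of Cq 37 and counted as missing. On the normalized scale the 6 controls ran from -3.19 to -0.93 (median -1.72) and the 5 remaining mice with OS from -4.33 to -2.59 (median -3.80). Control replicate 13 was the lowest control and lay below OS replicates 10 (-2.59) and 15 (-2.95), and the other 3 were below every control. miR-203 was decreased 3.31-fold (95% CI 1.64 to 6.67, log2 difference -1.73, limma adjusted p = 0.0295; exact permutation test, two-sided, p = 0.0108).

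The size of this difference followed the limit, since the limit removed the mice with OS that had the highest Cq. With every Cq under 40 kept, all 14 mice entered and the log2 difference was -2.44 (limma adjusted p = 0.00745), and with missing values set to Cq 38 it was -2.45 (adjusted p = 0.0109). With a limit of 35 only 1 mouse with OS was left and the difference was -0.71 (adjusted p = 0.608). The call was also lost when scaled to the 3 reference miRNAs (adjusted p = 0.0568), when the panels were centred separately (0.0574), and when any 1 of 5 mice was left out, namely the controls 2, 3 and 14 or OS replicates 16 or 18 (0.0567 to 0.0704). The log2 difference was negative in each of these fits. By place in the order of measured miRNAs, miR-203 stood at 67.0% ± 7.75 (SD) over 6 controls and 86.8% ± 9.02 (SD) over 5 mice with OS (two-sided exact permutation test, adjusted p = 0.00974), and this call held without any 1 mouse. The difference of 19.8 percentage points was 11.5 when miR-203 was placed only among the miRNAs measured in every mouse (exact permutation adjusted p = 0.0292), and 13.7 with the panels centred separately (adjusted p = 0.0260).

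The passenger miR-203* lay near the limit of measurement and was found in 3 of 8 mice with OS, a difference from the 6 of 6 controls that did not pass after adjustment at the limit of 37. Its Cq in controls was 34.45 at the lowest, 34.95 at the median and 36.45 at the highest, and all 6 controls were at or under 37. Of the 8 mice with OS, replicates 12 (35.94), 15 (35.24) and 18 (35.77) were under 37. Replicates 10 (37.26) and 17 (37.78) were above it, and the wells of replicates 11, 16 and 19 were blank. At this limit the difference in detection had an unadjusted p under 0.05 only (Fisher's exact test, two-sided, p = 0.0310, adjusted p = 0.0929 over the 3 assays). Over the 389 named miRNAs, 1 of them, or 0.257%, had an unadjusted Fisher p under 0.05 with fewer mice with OS, and that 1 was miR-203*. With every Cq under 40 counted as detected it was 6 of 6 and 5 of 8 (Fisher's exact adjusted p = 0.626), and at a limit of 35 it was 4 of 6 and 0 of 8 (adjusted p = 0.0225). miR-203 was detected in 6 of 6 and 5 of 8 at 37 (adjusted p = 0.313) and in 6 of 6 and 1 of 8 at 35 (adjusted p = 0.0140), and miR-205 in all 14 mice at each limit. The share over all named miRNAs was taken at the limit of 37 only, so the calls at 35 have no such share beside them.

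Among the mice in which miR-203* was detected its level did not pass the test. The normalized level ran from -5.20 to -2.84 in the 6 controls and from -3.49 to -3.07 in the 3 mice with OS, all of which lay within the control range. The log2 difference was 0.27 (95% CI -0.95 to 1.49, limma adjusted p = 0.789), an estimate over the 3 best detected mice with OS only. It became -0.42 with unscaled Cq, -0.23 when the panels were centred separately, -0.70 with every Cq under 40 and -1.41 with missing values at Cq 38, none of which passed (limma adjusted p 0.148 to 0.813). Without control replicate 14, the lowest control, it was -0.07.

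The relation of guide to passenger was taken as the Cq of miR-203* minus the Cq of miR-203 in the same mouse, which is the log2 level of miR-203 over that of miR-203*. It does not change with a scaling by 1 factor for each mouse, but it does when panel I, with miR-203, and panel II, with miR-203*, are centred separately. The wells have different primers and lie on different panels, so its sign does not give the ratio of molecules, whereas a shift of it between mice can be read. In controls it was 0.69 at the lowest, 1.37 at the median and 3.67 at the highest, with the guide ahead in all 6. Only 2 mice with OS had both wells at or under 37, replicate 15 at 0.12 and replicate 18 at -1.02, and both lay below every control. The difference of -2.13 between the groups did not pass over the 3 pairs of assays (exact permutation test, two-sided, adjusted p = 0.0714), where 6 against 2 mice allow no p under 0.0357. Without control replicate 4 or without control replicate 14 it passed (adjusted p = 0.0476), and with the panels centred separately it was -1.52 (exact permutation adjusted p = 0.107).

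Wells between Cq 37 and 40 added 3 mice. With them, OS replicates 10, 17 and 12 had values of 2.95, 2.16 and -2.11, so that the 5 mice with OS spread from below to within the control range (SD 2.12, against 1.07 in the 6 controls). The difference was then -1.26 (exact permutation test, two-sided, adjusted p = 0.232), and with missing values at Cq 38 it was -1.04 over all 8 mice with OS (adjusted p = 0.255). Among the 51 guide and star pairs of the panels with 2 or more mice in each group, the change from control to OS ran from -2.13 to 1.56 with a median of -0.44. The lowest was that of miR-203, on 2 mice with OS. It was followed by that of miR-141, another epithelial miRNA, at -2.11 with all 14 mice, and that of let-7d at -2.02.

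The genes were compared in the same way. In controls the level of miR-205 exceeded that of miR-203 by 7.68 ± 0.423 log2 units (SD, n = 6), a narrow range from 7.11 to 8.19. In the 5 mice with OS with both wells at or under 37 it was 5.39 ± 1.02 (SD, n = 5), from 3.86 in replicate 10 to 6.52 in replicate 18, all below the controls. The limit fixed this separation. In OS miR-205 was never under Cq 29.94, so a miR-203 well at or under 37 could only give a value below every control. Over these 5 the difference was -2.29 (exact permutation test, two-sided, adjusted p = 0.00649 over the 3 pairs of assays). That p therefore does not test whether the genes fell by different amounts. OS replicates 11, 12 and 19, left out by the limit, stood at 7.40, 7.11 and 7.91, all within the control range. With these 3, over all 8 mice with OS, the groups overlapped. The difference was then -1.51 (exact permutation adjusted p = 0.0305), in the direction of a larger fall of miR-205 than of miR-203. It draws on the miR-203 wells of these 3 mice, which lay above Cq 37 and counted as not detected. A further fall of miR-203 may not show there, so whether the genes fell by different amounts is not settled. At a limit of 35, with 1 mouse with OS, the difference was -3.82.
Against the passenger, miR-205 was ahead by 9.36 ± 0.773 (SD) over 6 controls and 5.22 ± 0.257 (SD) over 3 mice with OS. The ranges, 8.63 to 10.78 and 5.00 to 5.50, lay apart (difference -4.14, exact permutation adjusted p = 0.0179, with no p under 0.0119 possible before adjustment). With missing values at Cq 38 the difference was -2.52 over all 8 (exact permutation adjusted p = 0.003996). Both separations were fixed beforehand. With miR-205 at Cq 29.94 or more in OS, a miR-203* well at or under 37, or filled at 38, gives a value below every control. These p-values therefore do not test the change of one gene against the other. With every Cq under 40 it was -3.34 over 5 mice with OS (exact permutation adjusted p = 0.00649), which left out the 3 blank wells. With the panels centred separately, at the limit of 37, it was -3.37 (exact permutation adjusted p = 0.0179). Without OS replicate 12, 15 or 18 the adjusted p was 0.0536.

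**Figure D3:**
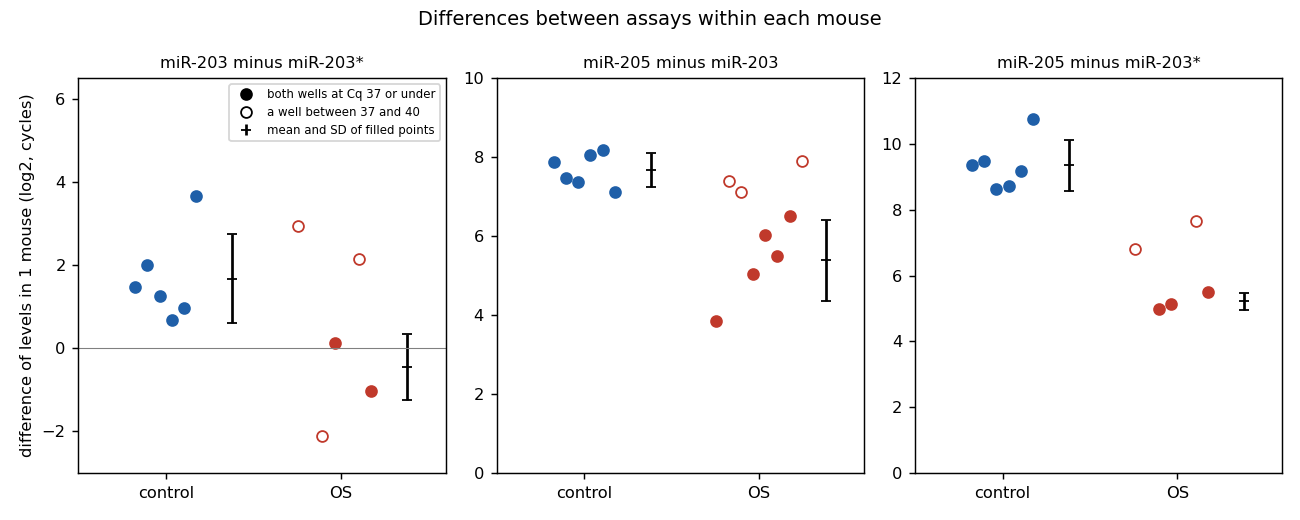
Differences between assays within each mouse, in log2 units of level (cycles). Each point is 1 mouse, blue for controls and red for OS, filled where both wells were at or under Cq 37 and open where a well lay between 37 and 40, and bars give the mean and SD of the filled points. The filled OS points lie below all controls in each panel, at 5.39 ± 1.02 against 7.68 ± 0.423 for miR-205 over miR-203, while the 3 open points of that pair lie between 7.11 and 7.91. Where miR-205 is compared, the limit of Cq 37 fixes this place of the filled OS points.

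Among the 6 controls, miR-205 and miR-203 tended to vary together, but no relation passed after adjustment over the 7 relations computed. For the normalized levels of miR-205 and miR-203, Pearson's r was 0.84 (exact permutation p = 0.0333, adjusted p = 0.117) and Spearman's rho 0.83 (p = 0.0583, adjusted p = 0.180, n = 6). Without the 2 controls farthest from the median of miR-205, r was 0.28 (n = 4), so the relation rests on those mice. For miR-205 and miR-203*, r was 0.58 and rho 0.66 (exact permutation adjusted p = 0.323 and 0.245), and for guide and passenger of miR-203, r was 0.23 and rho 0.20 (exact permutation adjusted p = 0.592 and 0.714). Without the 2 farthest controls these r were 0.47 and -0.55 (n = 4). In OS fewer than 6 mice had both values at or under 37, and no correlation between assays was computed there.

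Red blood cells that burst during sampling raise the haemolysis marker, the Cq of miR-23a minus that of miR-451, which ranged from 4.11 to 7.21 in controls and from 1.05 to 6.85 in OS (difference of means -1.58, exact permutation p = 0.117). In controls the normalized level of miR-205 ran against the marker (r = -0.81 and rho = -0.77, exact permutation adjusted p = 0.165 and 0.180, n = 6, r = -0.84 without the 2 farthest mice). In OS it ran with the marker (r = 0.77 and rho = 0.76, exact permutation adjusted p = 0.117 and 0.180, n = 8, r = 0.85 without the 2 farthest). The difference between these relations was not tested. For miR-203 and miR-203* in controls r was -0.43 and -0.69 (rho -0.37 and -0.77), with exact permutation adjusted p from 0.180 to 0.580 by either measure, and r was 0.24 and -0.91 without the 2 farthest (n = 4). With the marker as a covariate the log2 differences were -3.95 for miR-205 and -1.95 for miR-203 (limma adjusted p = 1.21e-06 and 0.0446). That fit took a common slope for both groups, which cannot follow the opposite relations of miR-205 in controls and OS. Without control replicates 3 and 13, whose marker was over 7, the log2 differences were -4.27 and -2.08 (adjusted p = 7.19e-07 and 0.0285).

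**Figure D4:**
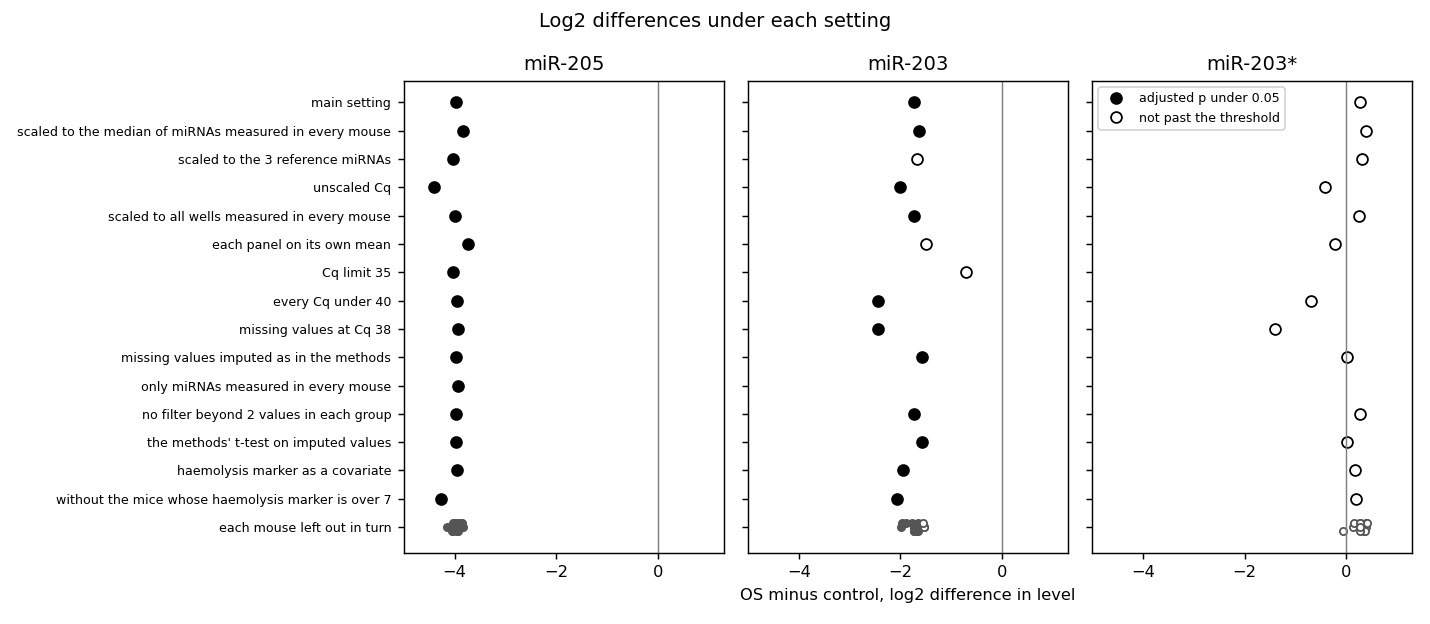
Log2 differences in level, OS minus control, of the 3 assays under each setting. The horizontal axis is the log2 difference, each row is a setting, the last row holds 1 point for each mouse left out, and filled points passed an adjusted p of 0.05. miR-205 stays between -4.41 and -3.73 and is filled throughout, miR-203 is negative in all settings that measured it but open in 3 settings and 5 of the fits that left out a mouse, and miR-203* lies on either side of 0 and is open throughout.

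The name of keratinocyte miRNAs was set against 24 named assays of a list of epithelial and skin miRNAs. Lower in OS were 3 of the 24, namely miR-205, miR-203 and miR-141, a member of the miR-200 family, and none was higher. Over all 388 miRNAs 25, or 6.44%, were lower. miR-141 differed by -2.23 on the log2 scale (limma adjusted p = 0.0261). The median log2 difference of the list was -0.77, against -0.00266 over all 388 miRNAs, and 19 of the 24 were negative against 50.3% of all. The list includes miR-205 and miR-203 themselves, and apart from them only miR-141 was called. The list was also written with earlier results of these data known, so the count of lower assays carries no test. How specific its members are to epithelium was not tested. The other 6 guide assays of the miR-200 family, which share with miR-205 the repression of the ZEB factors, had log2 differences from -1.32 (rno-miR-200b) to -0.80 (rno-miR-200c), with -1.24 for miR-200a, -1.14 for miR-200c, -1.04 for miR-429 and -0.83 for miR-200b. The passengers miR-141* and miR-200b* stood at -0.12 and 0.42. None of these passed (limma adjusted p from 0.146 to 0.850). miR-34c, an epithelial miRNA of the p53 response, was at -1.68 (adjusted p = 0.0504). The number of lower assays was 1 when scaled to the 3 reference miRNAs and without control replicate 3 or 14, and 5 without OS replicate 16.

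**Figure D5:**
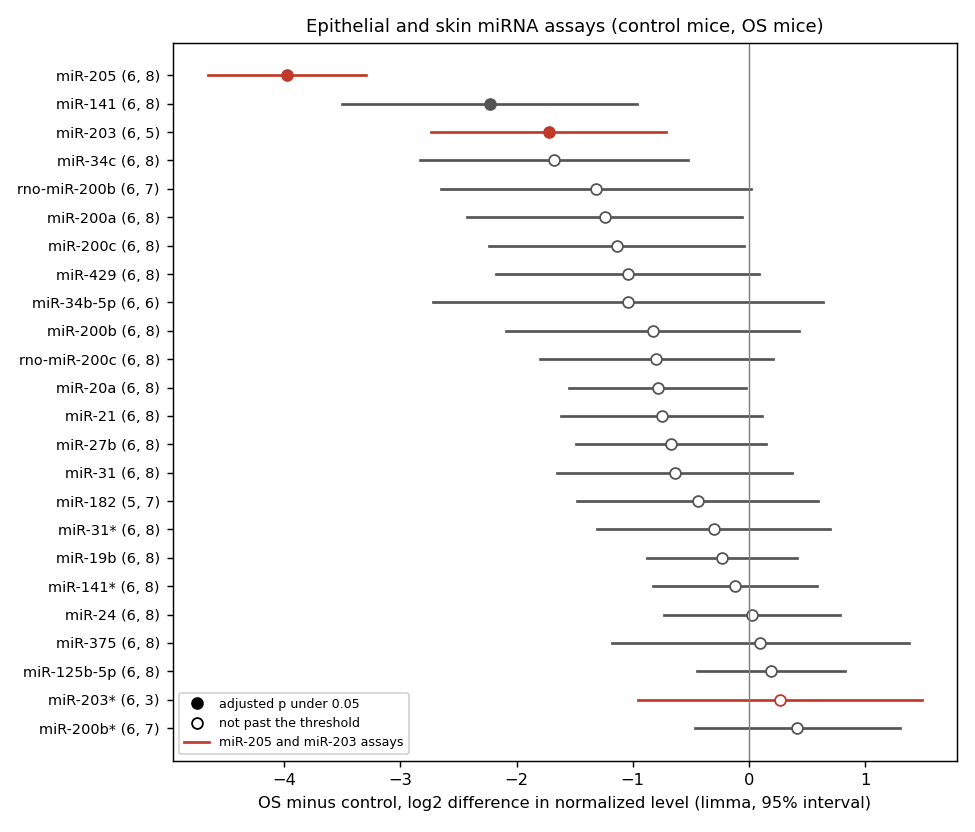
Log2 differences in normalized level, OS minus control, of 24 epithelial and skin assays, with the numbers of control and OS mice in brackets. Points are limma estimates and bars 95% intervals, filled points passed an adjusted p of 0.05, and the miR-205 and miR-203 assays are in red. miR-205 at -3.98 is the lowest and miR-141 at -2.23 comes next, and miR-203* lies at 0.27 with an interval on both sides of 0.

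Markers of other sources moved in the same mice. Of all 388 miRNAs 49 were called in either direction, and 25, or 6.44% of the 388, were lower in OS. Of 6 red blood cell assays 3 were lower in OS (miR-144 at -2.38, miR-15b* at -1.49 and miR-16-1* at -1.68 on the log2 scale, limma adjusted p 0.0131 to 0.0432). The other 3, miR-451 (-1.43), miR-16 (-0.77) and miR-486 (0.05), did not pass (limma adjusted p 0.132 to 0.955). The log2 of the summed level of the 6 ran from 11.97 to 14.01 in controls and from 9.64 to 12.97 in OS. Of 9 white blood cell assays 2 were lower, miR-142-3p at -3.57 and miR-146b at -1.29 (adjusted p = 0.00326 and 0.0407), with sums of 8.31 to 9.57 and 7.60 to 8.33. The other 7 did not pass, among them a second assay of miR-146b (rno-miR-146b, -0.98, limma adjusted p = 0.106). Of the 9 assays 7 were negative, while miR-146a and miR-150 stood at 0.08 and 0.02. Each tested assay of the red and white blood cell lists and of the 3 following lists had a value in 5 or more controls and 6 or more mice with OS. For fibroblasts and dermis, 2 of 9 assays were higher, which are repeat assays of the same miRNA, miR-214 (2.22 and 2.34). The other 7 did not pass, and 4 of the 9 were negative. The sums were 6.93 to 7.94 and 6.60 to 8.78. None of 6 muscle and 3 liver assays passed, with sums of 6.56 to 8.49 against 5.83 to 9.80 and of 7.83 to 10.58 against 8.55 to 12.10. Sums took only assays with a value in every mouse, which were 4 of the 6 muscle assays and all of the red and white blood cell, fibroblast and liver assays. In the epithelial list they were 18 of 24, without miR-203 and miR-203*. There the sums were 9.22 to 9.67 in controls and 8.86 to 9.47 in OS. The part of these sources in the difference of miR-205 and miR-203 was not tested.

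The miRNAs whose variation within the groups was most like that of each assay were sought among those measured in every mouse, after the mean of each group had been taken off. For miR-205 over 14 mice these were miR-582-3p (r = 0.82), miR-434-5p (0.66) and miR-22* (0.63). For miR-203 over 11 mice they were miR-187 (0.78), miR-122 (0.69) and miR-193* (0.68), and for miR-203* over 9 mice let-7b* (0.74), miR-1839-5p (0.71) and miR-33* (0.66). These are the highest of 275 or 276 values of r, all mice share the scaling, and the values are given as a description. None of the 9 is on the epithelial list, miR-122 is on the liver list, and 1 of them, miR-434-5p, was lower in OS (log2 difference -1.44, limma adjusted p = 0.0397).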

How the data were processed

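Plasma miRNAs of 6 control and 8 OS mice were measured on Exiqon mouse panels I and II. The authors deposited Cq values, which lie on a log2 scale, for 768 wells per mouse, 13.9% to 24.7% of them blank, under a heading of non-normalized data. The sources used here do not say whether calibration between plates or removal of outliers came first. A deposited table of the authors' own fold changes and p-values served only to name 392 wells by position. Groups and replicate numbers came from the sample titles, and 0 columns were left unused.

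Following the study's methods, any Cq over 37 became missing, a miRNA without values in 75% of mice or above was dropped, and levels were taken from the global mean of each mouse. Repeat wells were averaged, and gaps were filled only to compute the global mean, by the group mean or Cq 38. limma 3.58.1 in R 4.3.3 compared the groups (lmFit, eBayes, Benjamini-Hochberg over 388 miRNAs, threshold 0.05) without imputation. Within-mouse differences, places in the order and correlations were tested by exact permutation and detection by Fisher's exact test, each two-sided. The code was tested on simulated data. Figures were drawn with matplotlib 3.10.9 in Python 3.11.15. A Cq has no count of molecules behind it, so errors are SDs over mice.

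The assays, the lists of miRNAs and the alternatives were chosen with earlier results of these data known. Named are the 3 assays, the 3 miRNAs most like each, list members past the threshold or with the smallest p, and the haemolysis and reference miRNAs, while let-7d and the miR-200 family were named after their values were seen. Alternatives were other scalings, Cq limits, treatments of missing values, filters, the methods' t-test, the haemolysis marker and leaving out mice. Separate centring of the panels was added for the within-mouse differences and the places after seeing the data.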

Additional observations from a re-analysis of the deposited data

How the results depend on the processing

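No paired analysis was possible because the labels do not say which control was a littermate of which mouse with OS. The fall of miR-205 and its place in the order of miRNAs kept direction and call under every setting run. The log2 difference of miR-203 did not pass when scaled to the 3 reference miRNAs (-1.67), with the panels centred separately (-1.50) or at a Cq limit of 35 (-0.71), and ranged from -1.999 to -1.53 with single mice left out. That of miR-203* turned to -0.42 with unscaled Cq, -0.23 with the panels centred separately, -0.70 with every Cq under 40 and -1.41 at Cq 38, and ranged from -0.065 (without control replicate 14) to 0.41 with single mice left out, while its place in the order (difference 0.0875 percentage points with all mice) ranged from -1.76 to 2.87. The cause was not tested, other than that the limit and the fill change which mice enter. Within mice, miR-205 over miR-203 was -3.82 at a limit of 35, with 1 mouse with OS, and did not pass. With single mice left out, miR-203 over miR-203* ranged from -2.70 to -1.56 and miR-205 over miR-203* from -4.29 to -3.86. At 35 no mouse with OS had miR-203*, so neither pair had a value there. At that limit miR-203 was detected in 7 mice and miR-203* in 4, and both then passed the test of detection. The share of all named miRNAs that would pass at 35 is not given, so these calls have no background. The correlation of miR-203 with miR-203* in controls became -0.55 without the 2 farthest mice. Of 388 miRNAs 49 were called. The number was 21 with unscaled Cq, 29 at a limit of 35, 29 by the methods' t-test on imputed values, 17 with the haemolysis marker as a covariate and 20 when control replicates 3 and 13, with a marker over 7, were dropped. With single mice left out it ranged from 20 to 73, with 20 on dropping control 3, 31 on dropping control 13, 22 on dropping control 14, 28 on dropping OS replicate 11 and 29 on dropping OS replicate 12. The epithelial list had 1 lower assay with the reference miRNAs as scaling and 1 to 5 with single mice left out. Both miR-203 assays lay within a few cycles of the limit, where no repeat wells were given to measure the error.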
